A study of Rattus norvegicus with 16 samples.

Results

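The interferon response genes examined here are Irf1, Irf7, Ifitm3, Mx2 and Ifit2, 5 genes taken by name. They were chosen with earlier results of these data known. Every probe set whose only listed gene is one of them was kept, which gave 7 of the 31042 probe sets that are not controls, and 5 of the 14217 genes that such probe sets name. Irf1, Irf7 and Ifitm3 have 1 probe set each, and Mx2 and Ifit2 have 2 each. Of the 7 probe sets, 6 were bright enough to be tested and the dimmer one of Mx2 was not.

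The measurements come from the diencephalon, the brain region of thalamus and hypothalamus, of 16 male Sprague-Dawley rats, with 1 Affymetrix rat array for each rat and 4 rats for each diet group. All rats were 5 weeks old at the start and had a preference test with 300 mM NaCl. The zinc-deficient group (ZD) ate a diet with 0.6 mg of zinc per kg for 10 days, and its pair-fed control group (PF) ate matched amounts of a diet with 30 mg of zinc per kg for 10 days. The zinc-return group (ZR) had 10 days of the deficient diet and then 6 days of the control diet at 13 g a day, and its control group (ZRPF) was pair-fed to it for the first 10 days and then had the same 13 g ration, so both were arrayed after 16 days. No group on the control diet ate freely. The rats put on arrays were those that the submitters judged average in body weight, plasma zinc and salt preference, and 3 ZR rats and 1 ZRPF rat had been removed for their salt preference, so the spread among 4 rats may be smaller than in a whole group.

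Interferons are secreted proteins that cells release when they sense viral nucleic acid. Type I interferons bind one receptor pair and interferon gamma another, and both act through JAK kinases and STAT transcription factors, which bind short DNA elements before their target genes: the interferon-stimulated response element (ISRE) for type I signals and the gamma-activated site (GAS) for interferon gamma. Irf1 and Irf7 encode transcription factors of this response. Irf1 is induced by interferon gamma, and Irf7, in the mouse, is the factor that amplifies type I interferon production. The other members encode effectors. Ifitm3 is a membrane protein that blocks the entry of many viruses from endosomes, Mx2 is a cytoplasmic dynamin-like GTPase that in the rat acts against vesicular stomatitis virus, and Ifit2 is a tetratricopeptide repeat protein that restricts neurotropic viruses in the mouse brain. Zinc is widely known to be needed by immune cells, and microglia, the resident macrophages of the brain, take part in its interferon response.

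The promoters of Irf1, Irf7 and Ifitm3, the members for which one was available, are shown for their matches to the ISRE and the GAS. Irf7 and Ifitm3 varied together among the rats of a group (values are given further on). Whether these elements have a part in that was not tested. Each run is 300 bases from RefSeq on the rat build GRCr8, from 250 bases before to 50 bases after the annotated start, written 5′ to 3′ on the strand of the gene. Capitals mark matches to the core of the ISRE (GAAA, any 2 bases and GAAA again) and to the GAS (TTC, any 3 bases and GAA), both searched on both strands. Matched by gene identifier, 3 of the 5 members had a promoter in the table used. Mx2 and Ifit2 are named only.
Irf1, chr10:38417685-38417984, forward strand: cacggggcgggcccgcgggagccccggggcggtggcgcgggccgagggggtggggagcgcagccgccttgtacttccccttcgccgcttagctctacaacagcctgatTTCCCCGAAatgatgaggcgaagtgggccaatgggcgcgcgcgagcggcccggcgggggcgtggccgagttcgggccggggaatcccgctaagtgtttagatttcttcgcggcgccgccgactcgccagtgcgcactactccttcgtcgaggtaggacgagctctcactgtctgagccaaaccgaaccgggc
Irf7, chr1:205799974-205800273, reverse strand: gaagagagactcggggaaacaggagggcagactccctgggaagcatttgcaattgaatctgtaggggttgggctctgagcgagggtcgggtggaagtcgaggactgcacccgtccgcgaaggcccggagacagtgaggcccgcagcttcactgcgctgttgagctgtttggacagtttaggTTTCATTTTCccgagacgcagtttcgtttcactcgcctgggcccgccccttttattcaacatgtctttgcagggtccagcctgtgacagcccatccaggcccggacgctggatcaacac
Ifitm3, chr1:205541709-205542008, reverse strand: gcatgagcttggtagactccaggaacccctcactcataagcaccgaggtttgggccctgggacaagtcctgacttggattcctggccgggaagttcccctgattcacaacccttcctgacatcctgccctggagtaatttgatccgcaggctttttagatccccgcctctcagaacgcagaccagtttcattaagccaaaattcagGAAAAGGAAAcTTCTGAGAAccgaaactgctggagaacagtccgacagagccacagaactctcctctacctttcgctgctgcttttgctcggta

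In the Irf1 promoter the only match was a GAS, TTCCCCGAA, 142 to 134 bases before the start. Irf7 held an ISRE core on the opposite strand, which reads TTTCATTTTC on the strand shown, 69 to 60 bases before the start. Ifitm3 held both, an ISRE core GAAAAGGAAA 44 to 35 bases before the start and, after a single base between them, a GAS TTCTGAGAA 33 to 25 bases before it. Of all 33469 promoters of this length, 1312 (3.92%) held the ISRE core and 2970 (8.87%) the GAS. Among the antiviral effectors with a promoter in the table, 18 of 29 (62.1%) held the ISRE core and 7 of 29 (24.1%) the GAS. Among genes of the IRF family 1 of 8 held the ISRE core and 4 of 8 the GAS, and among interferon receptors 0 of 6 and 2 of 6. These lists count 1 promoter a gene, whereas the 33469 count every promoter. A match describes the letters only and is not evidence that a factor binds there. Irf7 and Ifitm3 lie on chromosome 1, on the same strand, with 12 protein-coding genes between them.

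The deposited values are signal intensities from the Affymetrix MAS5 algorithm, and all levels here are log2 of that signal, so a difference of 1 stands for a factor of 2. Median signals per array lay between 156.4 and 172.4. Probe sets were tested where their mean log2 signal reached the median over probe sets (7.35), which 15521 did. Of markers of the labelled tissue, 9 of 9 for thalamus and 9 of 10 for hypothalamus passed this filter, and 0 of 23 genes of other organs did. Markers of other brain regions were not examined, so this does not separate the diencephalon from them. Fold changes, standard errors (SE) and 95% confidence intervals come from one limma fit over all 16 arrays, and adjusted p-values are Benjamini-Hochberg values over the 15521 probe sets, with 0.05 as the threshold.

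Against pair-fed rats, zinc-deficient rats had higher mean signals of Irf1 by 1.33-fold and of Ifitm3 by 1.44-fold, while Irf7 differed mainly through 1 rat and Mx2 and Ifit2 lay close to 0. No member passed the threshold in limma: 0 of 6 tested probe sets had an adjusted p under 0.05, as did 0 of 15521 overall (0.0%). At an unadjusted p under 0.05 stood 2 of the 6, Irf1 and Ifitm3, against 1220 of 15521 (7.86%) overall. In a whole diencephalon, a different number of cells that make a transcript and a different amount in each cell cannot be told apart. This holds for all results below.

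**Figure D1:**
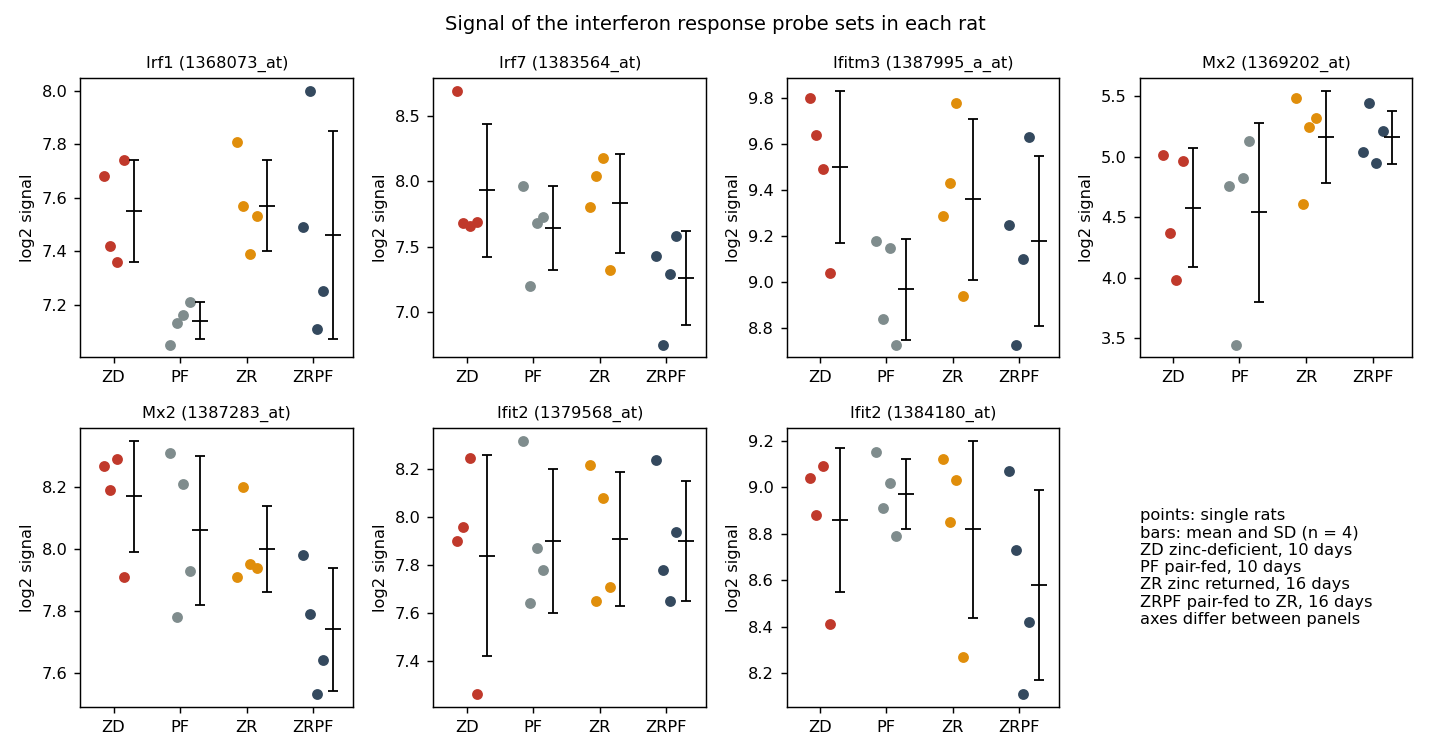
Log2 signal of each of the 7 probe sets in every rat, 1 panel a probe set, with the y axis in log2 signal and its range differing between panels. Points are single rats and bars give the mean and SD of 4 rats. The 4 ZD rats lie above the 4 PF rats for Irf1, the Irf7 point at 8.69 is ZD rat 2, and the dim Mx2 probe set lies between 3.45 and 5.48.

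Irf1 (1368073_at) had log2 signals of 7.68, 7.42, 7.36 and 7.74 in the ZD rats, against 7.05, 7.13, 7.16 and 7.21 in the PF rats. All 4 ZD rats lay above all 4 PF rats, the one member probe set without overlap between these groups, where 651 of 15521 (4.19%) had none in either direction. The mean was 7.55 ± 0.19 (SD, n = 4) in ZD rats and 7.14 ± 0.07 in PF rats, and the fold change was 0.41 ± 0.16 on the log2 scale (SE, 95% interval 0.07 to 0.76, limma adjusted p = 0.558). Irf1 is dim on these arrays, with a mean over all rats of 7.43, close to the filter.

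Ifitm3 (1387995_a_at) had log2 signals of 9.80, 9.64, 9.49 and 9.04 in the ZD rats, against 9.18, 8.84, 9.15 and 8.73 in the PF rats. Of the 4 ZD rats, 3 lay above every PF rat, and ZD rat 9 lay inside the PF range. The means were 9.50 ± 0.33 in ZD rats and 8.97 ± 0.22 in PF rats (SD, n = 4 each), a log2 fold change of 0.52 ± 0.20 (SE, 95% interval 0.11 to 0.93, limma adjusted p = 0.525). The Ifitm genes are close paralogs, and whether these probes also read another of them was not tested.

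Irf7 (1383564_at) had log2 signals of 8.69, 7.68, 7.66 and 7.69 in the ZD rats, against 7.96, 7.20, 7.68 and 7.73 in the PF rats. ZD rat 2 stood apart, about 1 log2 unit above the other 3 ZD rats, which lay inside the PF range. The log2 fold change was 0.29 ± 0.24 (SE, 95% interval -0.23 to 0.80, limma adjusted p = 0.807). Without ZD rat 2 it was 0.03 (adjusted p = 0.991), and without PF rat 2, the lowest PF rat, it was 0.14.

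Mx2 (1387283_at) had log2 signals of 8.27, 8.19, 8.29 and 7.91 in the ZD rats, against 8.31, 7.78, 8.21 and 7.93 in the PF rats. The groups overlapped throughout, with a log2 fold change of 0.11 ± 0.14 (SE, 95% interval -0.18 to 0.40, limma adjusted p = 0.879). The dim probe set of Mx2 (1369202_at) had 5.01, 4.37, 3.98 and 4.96 in the ZD rats, against 4.76, 3.45, 4.82 and 5.13 in the PF rats. Its mean over all rats, 4.86, lay at the 20.8th percentile of probe sets, which is among levels of genes of other organs (1.11 to 7.27), and it was not read further in this comparison. Rat Mx2 has a close relative in Mx3, and the probes were not checked against it.

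Ifit2 had 2 probe sets bright enough to test, and neither placed ZD above PF on average. On the first (1379568_at) the log2 signals were 7.90, 7.96, 8.25 and 7.26 in the ZD rats, against 8.32, 7.64, 7.87 and 7.78 in the PF rats. On the second (1384180_at) they were 9.04, 8.88, 9.09 and 8.41 in the ZD rats, against 9.15, 8.91, 9.02 and 8.79 in the PF rats. ZD rat 9 was the lowest ZD rat on both, and otherwise the ranges nearly coincided. The log2 fold changes were -0.06 ± 0.20 (SE, 95% interval -0.48 to 0.36, limma adjusted p = 0.959) and -0.11 ± 0.20 (95% interval -0.54 to 0.31, limma adjusted p = 0.927). Both intervals extend to either side of 0, so with 4 rats a group differences of either sign within them remain compatible with these data.

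Over the 6 tested member probe sets, 4 had higher and 2 had lower means in ZD rats, with a median log2 fold change of 0.20, where the median over all 15521 probe sets was 0.01. Both transcription factors and Ifitm3 were on the higher side and both Ifit2 probe sets on the lower.

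Whether differences from pair-fed rats were present after 6 days of zinc return was addressed by ZR against ZRPF. The member with the largest difference was here Irf7, at 1.49-fold higher mean signal in ZR rats, followed by Mx2, whereas Irf1 and Ifitm3 stood at 0.11 and 0.18 on the log2 scale. In limma 0 of 6 member probe sets passed the threshold, as against 1 of 15521 overall (0.00644%), and 1 of 6, Irf7, had an unadjusted p under 0.05, as against 808 of 15521 (5.21%). No member had groups without overlap, which 462 of 15521 (2.98%) had.

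Irf7 had log2 signals of 7.80, 8.04, 8.18 and 7.32 in the ZR rats, against 7.43, 6.75, 7.29 and 7.58 in the ZRPF rats. Of the 4 ZR rats, 3 lay above every ZRPF rat, and ZR rat 15 lay among them. The means were 7.83 ± 0.38 in ZR rats and 7.26 ± 0.36 in ZRPF rats (SD, n = 4 each), with a log2 fold change of 0.57 ± 0.24 (SE, 95% interval 0.06 to 1.08, limma adjusted p = 0.927). Leaving out single rats moved it between 0.40 and 0.74.

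The brighter Mx2 probe set had log2 signals of 7.91, 8.20, 7.95 and 7.94 in the ZR rats, against 7.98, 7.79, 7.53 and 7.64 in the ZRPF rats. ZR rat 10 lay above all ZRPF rats and the other 3 lay just under the highest of these. The log2 fold change was 0.26 ± 0.14 (SE, 95% interval -0.02 to 0.55, limma adjusted p = 0.927). The dim Mx2 probe set, with 4.61 to 5.48 in ZR rats and 4.95 to 5.44 in ZRPF rats, differed by 0.01.

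Irf1 had log2 signals of 7.81, 7.57, 7.39 and 7.53 in the ZR rats, against 7.49, 8.00, 7.11 and 7.25 in the ZRPF rats. ZRPF rat 4, at 8.00, was the highest of all 16 rats, so the ranges overlapped fully, and the log2 fold change was 0.11 ± 0.16 (SE, 95% interval -0.23 to 0.46, limma adjusted p = 0.958). Without ZRPF rat 4 it was 0.29 (adjusted p = 0.647) and without ZRPF rat 5 it was 0.00. Ifitm3 had log2 signals of 9.29, 9.43, 9.78 and 8.94 in the ZR rats, against 9.25, 8.73, 9.10 and 9.63 in the ZRPF rats. Its log2 fold change was 0.18 ± 0.20 (SE, limma adjusted p = 0.947), with 0.33 without ZRPF rat 6 and 0.03 without ZRPF rat 4. The 2 Ifit2 probe sets ran from 7.65 to 8.22 and from 8.27 to 9.12 in ZR rats, against 7.65 to 8.24 and 8.11 to 9.07 in ZRPF rats. Their log2 fold changes were 0.01 ± 0.20 (SE, adjusted p = 0.996 in limma) and 0.24 ± 0.20 (adjusted p = 0.945 in limma).

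All 6 tested probe sets had a fold change above 0 between ZR and ZRPF rats, with a median of 0.21 on the log2 scale against -0.01 over all probe sets. Several of them vary together among rats, as described below, so they are not 6 separate observations.

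**Figure D2:**
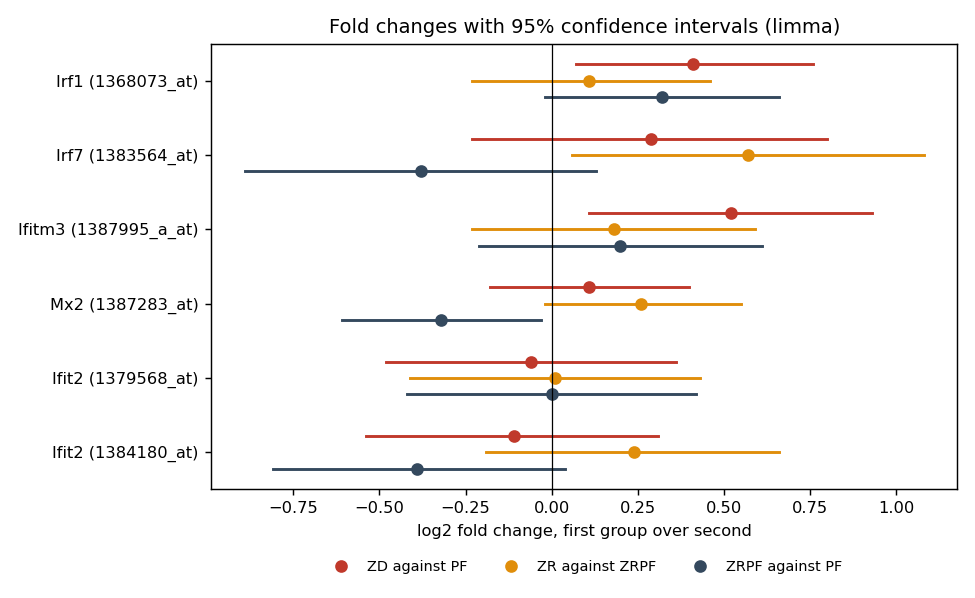
Log2 fold changes of the 6 tested probe sets with 95% confidence intervals from limma, for ZD against PF, ZR against ZRPF and ZRPF against PF. Intervals that do not cross 0 are those of Irf1 and Ifitm3 in ZD against PF, of Irf7 in ZR against ZRPF and of the brighter Mx2 probe set in ZRPF against PF.

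Whether the diet difference itself changed between the experiments was tested with the interaction, the ZR against ZRPF fold change minus that of ZD against PF. Irf1 stood at -0.30 ± 0.23 on the log2 scale (SE, adjusted p = 0.808), Ifitm3 at -0.34 ± 0.28 (adjusted p = 0.814) and Irf7 at 0.29 ± 0.34 (adjusted p = 0.877), all by limma. Leaving out single rats gave -0.42 to -0.12 for Irf1, -0.49 to -0.19 for Ifitm3 and 0.12 to 0.54 for Irf7, and without ZD rats 8 and 9 together Irf7 stood at 0.03. The brighter Mx2 probe set stood at 0.15 ± 0.19 (adjusted p = 0.881), and the Ifit2 probe sets at 0.07 ± 0.28 (adjusted p = 0.969) and 0.35 ± 0.29 (adjusted p = 0.814). In limma 0 of 6 member probe sets passed, and 0 of 15521 overall (0.0%), with 0 of 6 and 1025 of 15521 (6.6%) at an unadjusted p under 0.05. So the different order of the members after zinc return, Irf7 first instead of Irf1 and Ifitm3, did not pass a test of the difference.

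Comparing the experiments within a diet history, many probe sets of the array passed the threshold and no member did. In ZRPF against PF, 2430 of 15521 probe sets (15.7%) passed in limma and 0 of 6 member probe sets did, while 4674 (30.1%) and 1 of 6 had an unadjusted p under 0.05. In ZR against ZD, 2692 (17.3%) passed and 0 of 6 members, and 4865 (31.3%) against 0 of 6 members had an unadjusted p under 0.05. Groups did not overlap for 3323 probe sets (21.4%) and 3032 (19.5%), and for no member probe set in either comparison. The groups of each comparison differ in age, in the 6 days of ration feeding and in the experiment itself, and ZR and ZD rats also in the return of zinc, and these cannot be told apart.

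The brighter Mx2 probe set was the member with the smallest p between the pair-fed groups. Its mean was 7.74 ± 0.20 in ZRPF rats and 8.06 ± 0.24 in PF rats (SD, n = 4 each), a log2 fold change of -0.32 ± 0.14 (SE, 95% interval -0.61 to -0.03, limma adjusted p = 0.121). After median centring of the arrays it was -0.41 and passed (adjusted p = 0.0386). Irf1 stood at 0.32 ± 0.16 (SE, adjusted p = 0.195), with 3 of 4 ZRPF rats above all PF rats, and Irf7 at -0.38 ± 0.24 (adjusted p = 0.313), both by limma. Ifitm3 stood at 0.20 ± 0.20 (adjusted p = 0.520) and the second Ifit2 probe set at -0.39 ± 0.20 (adjusted p = 0.210). The dim Mx2 probe set, tested only without the filter, had 5.16 ± 0.22 in ZRPF rats and 4.54 ± 0.74 in PF rats (SD, n = 4 each), a difference of 0.62 whose adjusted p was 0.379. The 2 probe sets of Mx2 therefore stood on opposite sides of 0 here.

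In ZR against ZD the members lay nearer to 0. The log2 fold changes were 0.02 for Irf1, -0.09 for Irf7, -0.13 for Ifitm3, -0.17 for the brighter Mx2 probe set, and 0.07 and -0.04 for the Ifit2 probe sets, with limma adjusted p-values of 0.434 to 0.946. Set in order, the group means of Irf1 were 7.57 in ZR, 7.55 in ZD, 7.46 in ZRPF and 7.14 in PF rats, and those of Ifitm3 were 9.50 in ZD, 9.36 in ZR, 9.18 in ZRPF and 8.97 in PF rats. For Irf7 the order was 7.93 in ZD, 7.83 in ZR, 7.64 in PF and 7.26 in ZRPF rats, and for the brighter Mx2 probe set 8.17 in ZD, 8.06 in PF, 8.00 in ZR and 7.74 in ZRPF rats. For these 4 probe sets both groups with a history of deficiency had the higher mean than their own pair-fed group, and no neighbouring pair that was tested passed the threshold. The second Ifit2 probe set had means of 8.86 in ZD, 8.97 in PF, 8.82 in ZR and 8.58 in ZRPF rats, within SDs of 0.15 to 0.41, and the first lay between 7.84 and 7.91 in all groups.

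How the members varied among rats of one group was described by the deviation of each rat from its group mean, over all 16 rats. Such correlations are descriptions: the points share the RNA sample, the array and its scaling, and no p is given. Irf7 and Ifitm3 deviated together (Pearson r = 0.77). ZD rat 2 had the highest log2 signal of all 16 rats for both genes (8.69 for Irf7 and 9.80 for Ifitm3), and ZRPF rat 4 had the lowest for both (6.75 for Irf7 and 8.73 for Ifitm3, where PF rat 6 also had 8.73). The Ifit2 probe sets also deviated together (r = 0.77), and each did so with the brighter Mx2 probe set (r = 0.61 and 0.66). Irf1 did not deviate with them, with r = -0.52 to Ifitm3 and -0.24 to Irf7, and ZRPF rat 4, lowest for Irf7, was highest for Irf1. The 2 Mx2 probe sets did not deviate together (r = 0.05), so the dim one gives no second reading of Mx2.

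**Figure D3:**
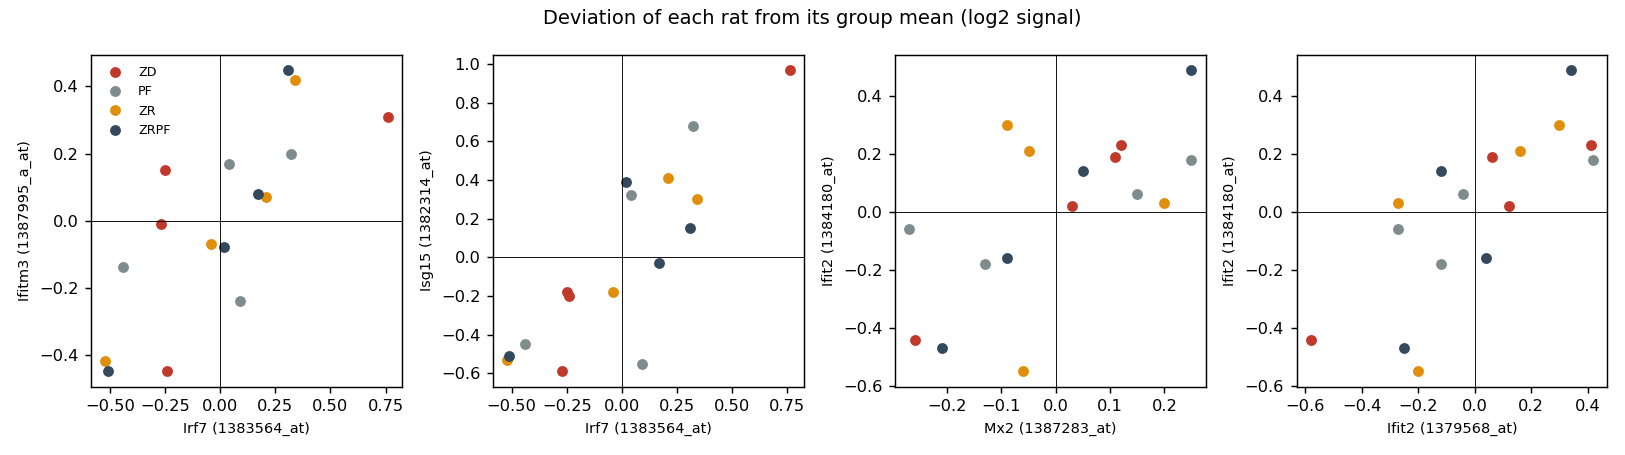
Deviation of each of the 16 rats from its group mean, in log2 signal on both axes, for Ifitm3 against Irf7, Isg15 against Irf7, Ifit2 against Mx2 and the 2 Ifit2 probe sets. Points run from lower left to upper right in each panel, with r of 0.77, 0.84, 0.66 and 0.77, and ZD rat 2 lies at the upper right of the panels with Irf7.

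The genes whose deviations were most like each member were taken from 9277 other genes, by r over the 16 rats. Those most like Irf7 were Ltbp4 (0.91), Sbk1 (0.89), Isg15 (0.84) and Rrs1-ps9 (0.82). Isg15, a ubiquitin-like protein that interferon induces, also deviated with Ifitm3 (r = 0.68), and its ZD rat 2 stood 0.97 above the ZD mean. Those most like Ifitm3 were Ska2 (0.92), Ppfia1 (0.89), Spata13 (0.86) and Pld2 (0.86), and those most like Irf1 were Rbis (0.94), Snrpe (0.91), Ubl3 (0.90) and Gskip (0.89), none of them on the interferon lists. The brighter Mx2 probe set was most like Plekhh1 (0.88), Map7 (0.87), Klhl5 (0.84) and Nkain2 (0.83). The first Ifit2 probe set was most like Phf20l1 (0.83), Kmt5b (0.79), Eif2ak2 (0.78) and Ilf2 (0.78), and the second like Tox (0.90), LOC102549828 (0.84), Vash2 (0.83) and Eif2ak2 (0.82). Eif2ak2, the double-stranded RNA-activated kinase PKR, was thus among the 4 most like genes for both Ifit2 probe sets, and its r to Mx2 was 0.77. The highest r was between 0.83 and 0.94 for each of the 6 probe sets.

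The wider interferon pathway was read from lists of 142 other genes in 9 roles, of which 104 had a probe set and 44 passed the filter with their brightest one. In limma 0 of 44 passed in ZD against PF and 0 of 44 in ZR against ZRPF, with 6 and 3 at an unadjusted p under 0.05, where 7.86% and 5.21% of all probe sets were. In ZD against PF 34 of the 44 had higher means in ZD rats, with a median log2 fold change of 0.11, where 52.5% of all probe sets were higher. In ZR against ZRPF 24 of the 44 were higher, with a median of 0.01, where 48.3% of all probe sets were higher. For the interaction 12 of 44 were above 0 (median -0.11), as were 46.9% of all probe sets, and 0 passed in limma with 1 at an unadjusted p under 0.05. All 44 genes were read in the same rats, where genes can vary together as several members did. These counts, and those by role below, are therefore not counts of separate observations.

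**Figure D4:**
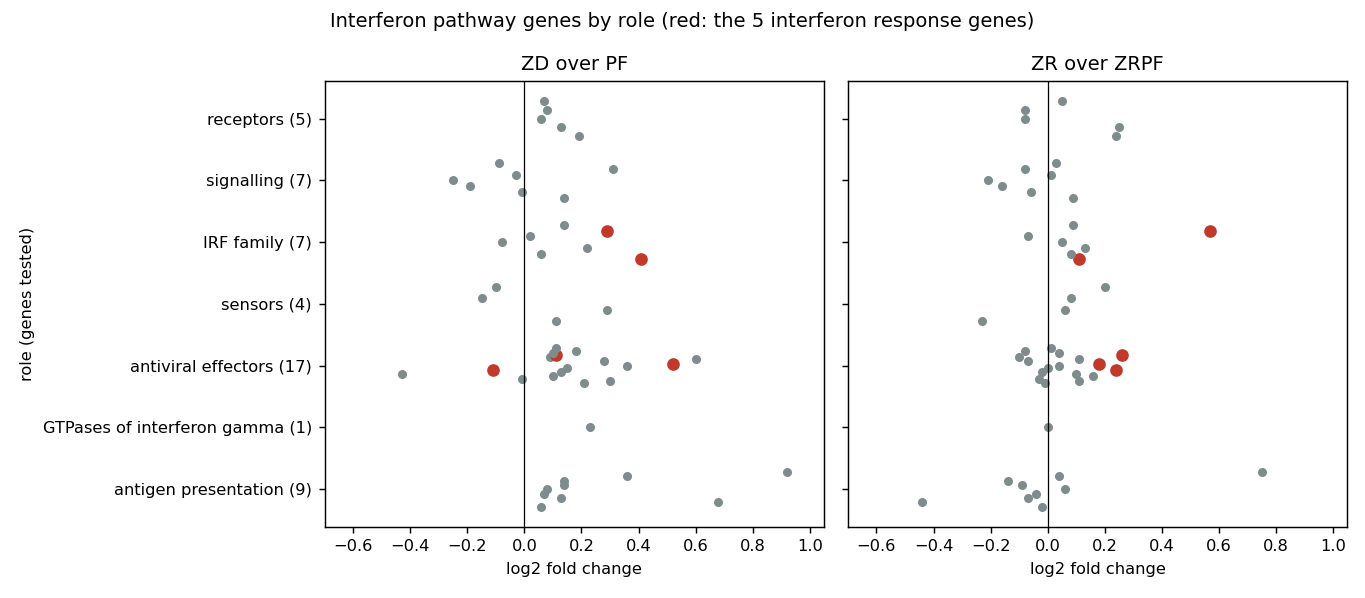
Log2 fold change of each tested interferon pathway gene by role, for ZD over PF on the left and ZR over ZRPF on the right. Large red points are the 5 interferon response genes, small grey points the others, and the number beside each role counts its tested genes with members included. The 9 antigen presentation genes all lie above 0 on the left, and RT1-S3 is the point farthest right in both panels.

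Of 10 interferon genes listed, 3 had a probe set and none of these was bright enough to test. Ifnb1, Ifng and Ifnk had mean log2 signals of 1.93, 2.12 and 3.94, within the range of genes of other organs. The 7 chemokines on the array were also below the filter, with Cxcl10, an attractant of T cells that interferon gamma induces, at 4.33. So were several effectors commonly used to follow an interferon response: Ifit1 at 6.29, Ifit3 at 5.88, Mx1 at 6.16, Oas1a at 6.24 and Rsad2 at 7.10. Usp18, the negative regulator of the type I receptor, was at 7.28. These are levels of single probe sets, so their order says nothing of the order of transcript abundance.

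All 5 receptor chains tested had slightly higher means in ZD rats than in PF rats, with a median log2 fold change of 0.08. The receptors of type I interferon, Ifnar2 and Ifnar1, stood at 0.13 ± 0.11 (SE, limma adjusted p = 0.804) and 0.19 ± 0.17 (adjusted p = 0.809), and Ifngr2, a chain of the interferon gamma receptor, at 0.08 ± 0.07 (adjusted p = 0.807). In ZR against ZRPF 3 of the 5 were higher and 2 lower (median 0.05). Ifngr1 and Ifngr2 both stood there at -0.08, Ifnar2 stood at 0.25 ± 0.11 and Ifnar1 at 0.24 ± 0.17, with adjusted p of 0.927 and 0.945. Of 7 signalling genes 2 were higher in ZD rats (median -0.03). The phosphatase Ptpn11 had lower means in both experiments, at -0.25 ± 0.09 in ZD against PF (adjusted p = 0.503 in limma) and at -0.21 ± 0.09 in ZR against ZRPF (adjusted p = 0.927). In the second its groups did not overlap, as for 462 of 15521 probe sets (2.98%) in either direction. Pias1, a SUMO ligase that restrains cytokine signalling, stood at -0.19 ± 0.11 and -0.16 ± 0.11 in the same comparisons, and Stat3 at 0.31 ± 0.26 in the first.

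Among the 7 tested genes of the IRF list, Irf1 and Irf7 included, 6 had higher means in ZD than in PF rats (median 0.14) and 6 in ZR than in ZRPF rats (median 0.09). Next to Irf1 by p in ZD against PF came the corepressors Irf2bp1 at 0.22 ± 0.16 and Irf2bp2 at -0.08 ± 0.07 (SE, limma adjusted p = 0.780 and 0.800). Of 4 sensors of foreign nucleic acid and their adaptors, 2 were higher and 2 lower. Tbk1, the kinase that activates IRF proteins, stood at -0.15 ± 0.08 in ZD against PF (adjusted p = 0.667), Myd88, the adaptor of Toll-like receptors, at 0.29 ± 0.17 (adjusted p = 0.715) and Mavs, the mitochondrial adaptor, at 0.11 ± 0.14 there and at -0.23 ± 0.14 in ZR against ZRPF. Trim25, a ubiquitin ligase of the RNA sensor pathway, stood at 0.20 ± 0.20 in ZR against ZRPF.

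The antiviral effectors, Ifitm3, Mx2 and Ifit2 included, had 14 of 17 tested genes higher in ZD than in PF rats (median 0.13) and 11 of 17 higher in ZR than in ZRPF rats (median 0.04). Lgals3bp, a secreted galectin ligand, had 7.98 ± 0.40 in ZD rats and 7.38 ± 0.07 in PF rats (SD, n = 4 each), a log2 fold change of 0.60 ± 0.23 (SE, limma adjusted p = 0.558). Adar, the RNA-editing enzyme, stood at 0.21 ± 0.10 (adjusted p = 0.611). Isg15 had 7.92 ± 0.67 in ZD rats and 7.64 ± 0.60 in PF rats, and 7.26 ± 0.44 in ZR rats and 7.34 ± 0.38 in ZRPF rats (SD, n = 4 each). Its log2 fold changes were 0.28 ± 0.32 in ZD against PF and -0.07 ± 0.32 in ZR against ZRPF, so in the second experiment it did not share the higher mean of Irf7. Eif2ak2 stood at 0.16 ± 0.13 in ZR against ZRPF (SE, adjusted p = 0.945), and the one GTPase of interferon gamma that was tested, Irgm2, at 0.23 ± 0.15 in ZD against PF (adjusted p = 0.730).

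Antigen presentation genes had 9 of 9 means higher in ZD than in PF rats (median 0.14) and 3 of 9 higher in ZR than in ZRPF rats (median -0.04). RT1-S3, a class I histocompatibility gene, had 8.66 ± 0.26 in ZD rats and 7.75 ± 0.35 in PF rats, and 8.02 ± 0.38 in ZR rats and 7.27 ± 0.21 in ZRPF rats (SD, n = 4 each). Its log2 fold changes were 0.92 ± 0.19 (SE, limma adjusted p = 0.151) and 0.75 ± 0.19 (limma adjusted p = 0.927), without overlap in either experiment. Of all probe sets, 4.19% had no overlap in ZD against PF and 2.98% in ZR against ZRPF, in either direction. The RT1 genes form a family of near-identical members, so which of them its probes read is uncertain. RT1-M3-1, another class I gene, stood at 0.36 ± 0.12 in ZD against PF (adjusted p = 0.460). Cd74, the invariant chain of class II molecules, stood at 0.68 ± 0.27 in ZD against PF (adjusted p = 0.549) and at -0.44 ± 0.27 in ZR against ZRPF (adjusted p = 0.927).

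Between the experiments some pathway genes did pass in limma. In ZRPF against PF 7 of the 44 passed, 4 higher and 3 lower, with Tbk1 at -0.29 ± 0.08 (SE, adjusted p = 0.0206), Ifi27, an interferon-induced mitochondrial protein, at -0.72 ± 0.21 (adjusted p = 0.0244) and Irf2bp2 at -0.23 ± 0.07 (adjusted p = 0.0301). In ZR against ZD 3 passed: Pias1 rose by 0.38 ± 0.11 (adjusted p = 0.0269), RT1-S3 fell by 0.65 (SE 0.19, adjusted p = 0.0275) and Cd74 fell by 0.80 (SE 0.27, adjusted p = 0.0446). The shares, 7 and 3 of 44, stand beside 15.7% and 17.3% of all probe sets.

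Several lists of markers of other cell types had higher summed signals in ZD rats, as Irf1 and Ifitm3 did, most with overlapping ranges, and others did not. The summed linear signal of 17 microglia and myeloid markers was 6886 to 8203 in ZD rats and 5767 to 7271 in PF rats, and 6 of the 9 that passed the filter were higher (median 0.15 on the log2 scale). The sum was 6653 to 7636 in ZR rats and 6589 to 7966 in ZRPF rats. The microglia and myeloid sum did not follow Irf7 and Ifitm3 in every group. ZD rat 2, highest for both, had the highest sum of all rats, 8203, and ZRPF rat 4, lowest for both, had the lowest of its group, 6589. ZR rat 15, lowest of its group for both, had the highest sum of its group, 7636, ZR rat 13, highest of its group for both, had 6828, and ZD rat 9, lowest of its group for Ifitm3, had 7929. Meningeal and mural markers (17) summed to 6793 to 11950 in ZD rats and 6537 to 7815 in PF rats, with 11 of 12 tested higher (2 of 12 in ZR against ZRPF), and choroid plexus markers (11) to 8655 to 20400 in ZD rats and 7798 to 9411 in PF rats, with 8 of 8 higher (2 of 8 in ZR against ZRPF). Endothelial markers (15) summed to 9395 to 11430 in ZD rats and 8976 to 10150 in PF rats, with 12 of 13 higher. In each group the endothelial sum was lowest in the rat lowest for Ifitm3. These were PF rat 6 (8976), ZD rat 9 (9395), ZRPF rat 4 (8684) and ZR rat 15 (9171). The endothelial sum was highest in the rat highest for Ifitm3 among PF and ZR rats, and not among ZD and ZRPF rats. The rat lowest for Irf7 had the lowest endothelial sum among ZRPF and ZR rats only, and the rat lowest for Irf1 in no group. In the rat lowest for Ifitm3 the ependymal sum was also lowest among PF (2800), ZD (3558) and ZRPF (3585) rats, and not among ZR rats. These matches were picked after the values were seen. Ependymal markers (8) summed to 3558 to 4249 in ZD rats and 2800 to 3297 in PF rats, without overlap, and to 2994 to 3303 in ZR rats and 3585 to 3943 in ZRPF rats, again without overlap and the other way round. On the other side, 1 of 9 thalamus markers was higher in ZD than in PF rats (median -0.19), as were 1 of 8 astrocyte markers (median -0.07) and 3 of 8 neuron markers (median -0.04). Hypothalamus markers (10) summed to 19650 to 28950 in ZD rats and 22990 to 26320 in PF rats. They summed to 27470 to 29590 in ZR rats and 30530 to 32280 in ZRPF rats, without overlap. The ZRPF sums also lay above all PF sums. Blood markers (4) summed to 3855 to 4465 in ZD rats and 4245 to 5022 in PF rats. Their sums were 1604 to 4077 in ZR rats and 3365 to 4490 in ZRPF rats. The choroid plexus sum ran from 7156 to 34260 in ZR rats and from 7400 to 35590 in ZRPF rats. Of 12 lymphocyte and neutrophil markers none passed the filter and 8 lay at or below the median of genes of other organs (4.17). The part of these cell types in the members' differences was not tested.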

How the data were processed

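One Affymetrix rat array was hybridised for each of 16 rats, after 3′-primed amplification and labelling of 100 ng of total RNA, per the labels. The deposited values are signal intensities on a linear scale, 1 for each of 31099 probe sets, which the authors made with MAS5, per the submitters' processing notes. No version of it is known here. No detection calls were used. Here 57 control probe sets were removed, the log2 of each signal was used as it stood, and probe sets with a mean below the median (7.35) were left untested. All groups entered a single limma fit (version 3.58.1, R 4.3.3) whose variance prior followed intensity, with each rat counted separately. Probe sets were named from the platform table where it lists 1 gene (20826 of 31042), and 436 list several. A gene of a pathway list was read from its brightest probe set. The pathway genes named are those of smallest p in each list (up to 3 in ZD against PF, 2 in ZR against ZRPF), up to 3 over all lists in the other comparisons, and the 4 genes most like each member. Genes below the filter that are named were picked outside this rule, after their values were seen. The members and lists were chosen with earlier results of these data known. The fit was tested on simulated data. The number of arrays limits the precision. Alternatives were quantile normalization, median centring, other filters, an offset of 32, no trend, array weights, only the arrays compared, a replicate block and leaving out rats.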

Additional observations from a re-analysis of the deposited data

Results flagged for a closer look

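Of 28 sets of 4 rats examined (7 probe sets in 4 groups), 2 held a rat whose gap to the nearest other rat exceeded Dixon's 95% critical value of 0.829 of the range, and chance gives about 1 such set in 20. ZD rat 2 had an Irf7 (1383564_at) log2 signal of 8.69, far above the other ZD rats at 7.66 to 7.69. ZR rat 10 had an Mx2 (1387283_at) log2 signal of 8.20, above the other ZR rats at 7.91 to 7.95.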

How the results depend on the processing

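The precision of each value is limited by 4 rats in a group. No member probe set passed the threshold under any alternative, except the brighter Mx2 probe set in ZRPF against PF after median centring (-0.41). Of 730 recomputed values of the 6 tested member probe sets, 701 neither changed sign nor crossed the threshold, and 28 changed sign without a call in either setting. Ifit2 1379568_at in ZRPF against PF stood at 0.00, so its recomputed values had no direction to keep and count among the 701. They ran from -0.11 to 0.14 with single rats left out and from -0.08 to 0.23 under the other alternatives. Causes were not tested. Probe sets passing in ZD against PF numbered 0, and 1 without ZD rats 8 and 9 together, with 0 to 3 when single rats were left out (3 without ZD rat 8). In ZR against ZRPF 1 passed, 0 with quantile normalization, no filter, only the brightest 10348 probe sets, no intensity trend or only the arrays compared, and 0 to 9 with single rats left out (9 without ZRPF rat 6). For the interaction 0 passed, and 0 to 1 with single rats left out. In ZR against ZD 2692 passed, and 1572 without ZD rats 8 and 9 together. The rats of PF and ZRPF share the numbers 2, 4 and 6, and the correlations of their deviations were 0.079, 0.020 and 0.035. Pairs with different numbers ran from -0.096 to 0.078. Such values cannot decide whether a shared number marks a pairing, and the rats were counted as separate animals. In ZRPF against PF 1085 probe sets passed with the replicate block, which was fitted only on PF and ZRPF rats 2, 4 and 6. With all 16 rats and no block 2430 passed, so the block and the smaller number of rats cannot be told apart. Leaving out single rats gave 1681 to 2651. Sign changes of the tested member probe sets were these. Ifit2 1379568_at in ZD against PF was 0.03 without ZD rats 8 and 9, and -0.20 to 0.13 with single rats left out. In ZR against ZRPF it was -0.02 with array weights and -0.09 to 0.12 with single rats left out, in the interaction -0.01 with array weights, -0.01 without ZD rats 8 and 9 and -0.12 to 0.21, and in ZR against ZD -0.01 without ZD rats 8 and 9 and -0.12 to 0.21. Irf1 1368073_at in ZR against ZD was -0.01 with quantile normalization and -0.06 to 0.08 with single rats left out. With single rats left out, Ifit2 1384180_at ran from -0.19 to 0.04 in ZD against PF and from -0.18 to 0.15 in ZR against ZD, Irf7 1383564_at from -0.21 to 0.16 and Ifitm3 1387995_a_at from -0.28 to 0.01 in ZR against ZD. The dim Mx2 probe set, untested, ran from -0.32 to 0.24 in ZD against PF, from -0.10 to 0.19 in ZR against ZRPF and from -0.23 to 0.33 in the interaction with single rats left out, and was -0.05 in ZD against PF with quantile normalization. With all tested probe sets in place of the brightest, 6 pathway probe sets passed in ZR against ZD, against 3.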
